A study of Homo sapiens with 22 samples.

Results

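β-catenin was depleted by siRNA in BRCA2-proficient H1299 cells while GSK3 was inhibited, and every gene was compared with control siRNA under the same inhibitor. The 6 libraries carrying these labels, out of 22 in the series, were 3 with control siRNA (AllStars) and 3 with siβ-catenin, which targets CTNNB1, the β-catenin gene. The H1299 line comes from a human non-small cell carcinoma of the lung. All cultures, controls included, carried an shRNA against BRCA2 whose expression doxycycline (DOX) switches on. The 6 cultures were grown without DOX, so that the shRNA was not induced, and received 250 nM of the GSK3 inhibitor LY2090314 (GSK3i) for 24 h from the day after transfection. Other cultures serve only as reference here. They are BRCA2-proficient cells without GSK3i, with control siRNA (2 libraries, called untreated) or siβ-catenin (2 libraries), and cells made BRCA2-deficient by 3 days of DOX at 2 µg/mL, with the same siRNAs, with and without GSK3i (3 libraries each). The study describes the replicates as independent experiments, and no untransfected culture was analysed here.

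GSK3 phosphorylates β-catenin within a complex of AXIN, APC and casein kinase, and phosphorylated β-catenin is ubiquitylated and degraded. When GSK3 is blocked, β-catenin accumulates, enters the nucleus and acts as a co-activator of the DNA-binding factors LEF1, TCF7 and their relatives. Feedback genes such as AXIN2 are among the targets known in many cell types. GSK3 has many other substrates, so removing β-catenin under GSK3i asks which part of the transcriptional response to the inhibitor depends on β-catenin.

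Library totals were 21.9 to 25.9 M counts in the 6 libraries. Levels below are normalised counts, that is, raw counts divided by a DESeq2 size factor for each library. They are given in the order of replicates 1, 2 and 3, and where one set of values stands against another, control siRNA with GSK3i comes first and siβ-catenin with GSK3i second. Changes are log2 fold changes ± SE of siβ-catenin over control siRNA, with adjusted p from DESeq2 unless edgeR is named. A second value in the same brackets is that adjusted p. A gene was called when its adjusted p was below 0.05 and its change was beyond 0.5 in size. Coordinates are on GRCh37. The cells had markers of both mesenchymal and epithelial cells. Of the mesenchymal ones VIM had 17792 to 28502 normalised counts and CDH2 1923 to 2107 in the 6 libraries. Of the epithelial ones the keratins KRT8 and KRT18 had 2037 to 5717 and 5135 to 8309, whereas KRT19 (0 to 5.77), EPCAM (1.14 to 12.7) and CDH1 (0 to 2.33) were near 0. Of 14 marker genes of blood, endothelial, stromal, neural and liver cells, 7 stayed below 10 in all 6 libraries, PTPRC and LUM among them. Their summed level was 104.8 to 120.6 with control siRNA and 131.1 to 260.8 with siβ-catenin, and its part in the results was not tested.

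CTNNB1 (ENSG00000168036, chromosome 3, 41236232 to 41301587) had 6515, 6070.1 and 6187 normalised counts with control siRNA and 1906, 2185 and 1642 with siβ-catenin under GSK3i. All libraries with siβ-catenin lay far below all with control siRNA, and the change was -1.68 ± 0.15 (adjusted p = 3.11e-25). In bulk RNA, fewer cells with a transcript and less transcript per cell cannot be told apart. JUP, which encodes plakoglobin, the closest relative of β-catenin, had 120.0, 108 and 66.5 against 141, 439 and 108 and was not called (1.26 ± 0.47, adjusted p = 0.0855). Its level of 439 in siβ-catenin replicate 2 stood apart from the other 2. It was called with the replicate number as a block (1.02, adjusted p = 0.0461), without siβ-catenin replicate 3 (1.60, 0.00978) and in a single model of all groups (1.25, 0.0109). GSK3A, GSK3B and BRCA2 were not called either (-0.11 ± 0.16, -0.12 ± 0.14 and -0.27 ± 0.24).

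Siβ-catenin replicate 2 goes against its GSK3i label, and is called the doubtful library below. The response to GSK3i was measured from genes that GSK3i changed in BRCA2-deficient cells with control siRNA, a comparison with no library in common with this one. There, 1955 genes (11.6% of 16863 tested) were higher with GSK3i and 2334 (13.8%) were lower. The median of the raised genes, as a log2 difference from untreated BRCA2-proficient cells, was 0.76, 0.70 and 0.69 for GSK3i with control siRNA. With siβ-catenin it was 0.53 and 0.56 in replicates 1 and 3, and 0.03 in replicate 2. The lowered genes gave -0.94, -0.99 and -1.05 with control siRNA, -0.74 and -0.79 in siβ-catenin replicates 1 and 3, and 0.06 in replicate 2. The doubtful library therefore lay at the untreated level on both measures, while its CTNNB1 was as low as in the other libraries with siβ-catenin. Conversely, the library labelled siβ-catenin without GSK3i, replicate 2, had 0.54 and -0.75, close to the libraries with GSK3i, and replicate 3 of that group had 0.21 and -0.29. A mix-up of these labels was not tested and no library was reassigned. All 6 libraries are kept as labelled, and results are given with and without the doubtful one.

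**Figure D1:**
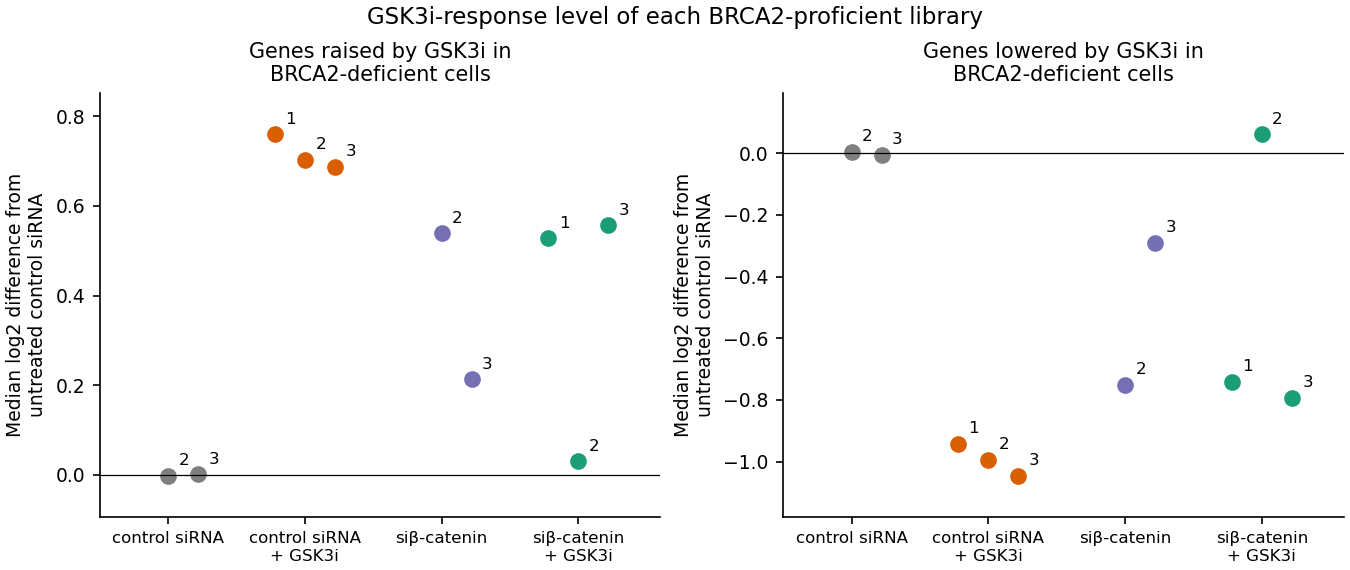
Median log2 difference from untreated control siRNA for genes that GSK3i raised (left) or lowered (right) in BRCA2-deficient cells, for each of 10 BRCA2-proficient libraries, with points numbered by replicate. Siβ-catenin with GSK3i replicate 2 sits at 0.03 and 0.06, beside the untreated libraries, and replicates 1 and 3 lie between the untreated and the GSK3i libraries.

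Across all genes, 836 of 16393 were called, 522 higher (3.18%) and 314 lower (1.92%) with siβ-catenin. Leaving the doubtful library out gave 782 of 16630, 422 higher (2.54%) and 360 lower (2.16%). Both fits called 573 genes, 322 higher and 251 lower, with 0 in opposite directions. The called genes were mostly protein-coding (768), with 47 lncRNAs. Increases were of larger size but in less abundant transcripts than decreases. The median change was 0.97 over the higher genes and -0.76 over the lower, and the median level 236 and 1486 normalised counts. Without the doubtful library the changes were closer in size, at 0.80 and -0.71, and the levels were 292 and 1080. Over all genes tested the median change was 0.00. A core of 250 genes (129 higher, 121 lower) was called in the fit of 6 libraries and in each of the 6 fits that left 1 library out. The edgeR quasi-likelihood test called 183 genes, and the count was 292 without GSK3i replicate 2 and 430 without GSK3i replicate 3.

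Among WNT feedback and target genes the calls were all decreases. Of 25 listed genes tested, 10 were lower and 0 higher, against 1.92% lower among all genes, and their median change was -0.61. Without the doubtful library 11 of 26 tested were lower and 0 higher, with a median of -0.54, and edgeR called 7 lower and 0 higher. At an unadjusted p below 0.05 there were 13 of the 25 genes with all 6 libraries, against 2875 of all 16393 genes tested. The count ran from 7 (without GSK3i replicate 2) to 11 when single libraries were left out, and 7 genes (AXIN2, LEF1, TCF7, SOX4, CCND1, JAG1 and PRICKLE1) were lower in each of those fits. Several of these genes were put on the list because earlier work names them, this study included, so the list is no independent evidence of its direction.

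AXIN2 (ENSG00000168646, chromosome 17, 63524681 to 63557766), a scaffold of the β-catenin destruction complex, had 1153, 1145 and 1027 normalised counts with GSK3i and control siRNA and 145, 73.1 and 117 with siβ-catenin. Its untreated level was 82.4 and 72.3. Replicates 1 and 3 with siβ-catenin stayed above it, and the doubtful library lay inside its range. The change was -3.29 ± 0.23 (adjusted p = 6.29e-42), and -3.06 ± 0.17 without the doubtful library. SOX4 (ENSG00000124766, chromosome 6, 21593982 to 21598850), an SRY-related transcription factor, had 3536, 3527 and 2693 with control siRNA and 876, 920.0 and 937 with siβ-catenin. All 3 depleted libraries lay below the untreated ones (982 and 1103), and the change was -1.81 ± 0.16 (adjusted p = 4.88e-27). CCND1 (ENSG00000110092, chromosome 11, 69455924 to 69469242), the cyclin D1 gene, showed the same order, with 9649, 8927 and 8177 against 4825, 3543 and 4596, and 5209 and 5231 untreated. It changed by -1.02 ± 0.16 (adjusted p = 5.34e-08), and by -0.90 ± 0.12 without the doubtful library.

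The TCF/LEF factors, through which β-catenin acts on DNA, moved in different directions. LEF1 (ENSG00000138795, chromosome 4, 108968701 to 109090112) had 406, 368 and 453 with control siRNA and 102, 91.4 and 145 with siβ-catenin, and 65.0 and 49.5 in untreated cells. TCF7 (ENSG00000081059, chromosome 5, 133450372 to 133487556) had 2311, 2067 and 1793 against 759, 396 and 698, and 361 and 396 untreated. In both, replicates 1 and 3 with siβ-catenin stayed above every untreated library. In the libraries labelled siβ-catenin without GSK3i (replicates 2 and 3) LEF1 had 115 and 131, and TCF7 593 and 371. LEF1 was thus above the untreated level in both. However, replicate 2 goes against its label, with 0.54 and -0.75 on the measures of the GSK3i response. Replicate 3 had 0.21 and -0.29, so a rise of LEF1 without GSK3i is not established. Under GSK3i the changes of LEF1 and TCF7 were -1.84 ± 0.23 (adjusted p = 5.74e-13) and -1.71 ± 0.24 (adjusted p = 3.21e-10). BCL9, a bridge between β-catenin and its co-activators, also fell (-0.70 ± 0.15, adjusted p = 3.8e-04). TLE2, a Groucho-family co-repressor, had 209.6, 138 and 111 against 304, 485 and 245 and rose by 1.20 ± 0.32 (adjusted p = 0.00584). This rise was 0.87 without the doubtful library, and was not called without GSK3i replicate 2 (adjusted p = 0.108), without GSK3i replicate 3 (0.104) or by edgeR (0.107). TCF7L1, a mostly repressive factor, was also called with all 6 libraries (0.53) and without the doubtful one (0.51), but in none of the other 5 fits that left 1 library out (adjusted p 0.075 to 0.259), with the replicate block (0.0873) or by edgeR (0.134). Of the 21 factors and co-factors tested, 3 were lower and 2 higher in both fits. The shares of all genes were 1.92% lower and 3.18% higher, and 2.16% and 2.54% without the doubtful library. LEF1 and TCF7 overlap transcripts of the opposite strand (LEF1-AS1 and SKP1), whose reads cannot be separated from theirs where the counting strand is unknown. The same limit holds for CCND1 (LTO1), PITPNB (TTC28-AS1) and KRT8 (KRT18), and for the levels given here of GSK3A, GSK3B, MYC, JAG1, PRICKLE1, ETV4, PHLDA1, COL1A1, LAMA5, LAMB1, LIF, SLC7A5, SLC7A11, MTHFD2, BCL2L11, RRP12, TFEB, WIPI1, PPP1R3B, CCNE2, PRIM1, GINS1, ADM2 and G3BP1.

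**Figure D2:**
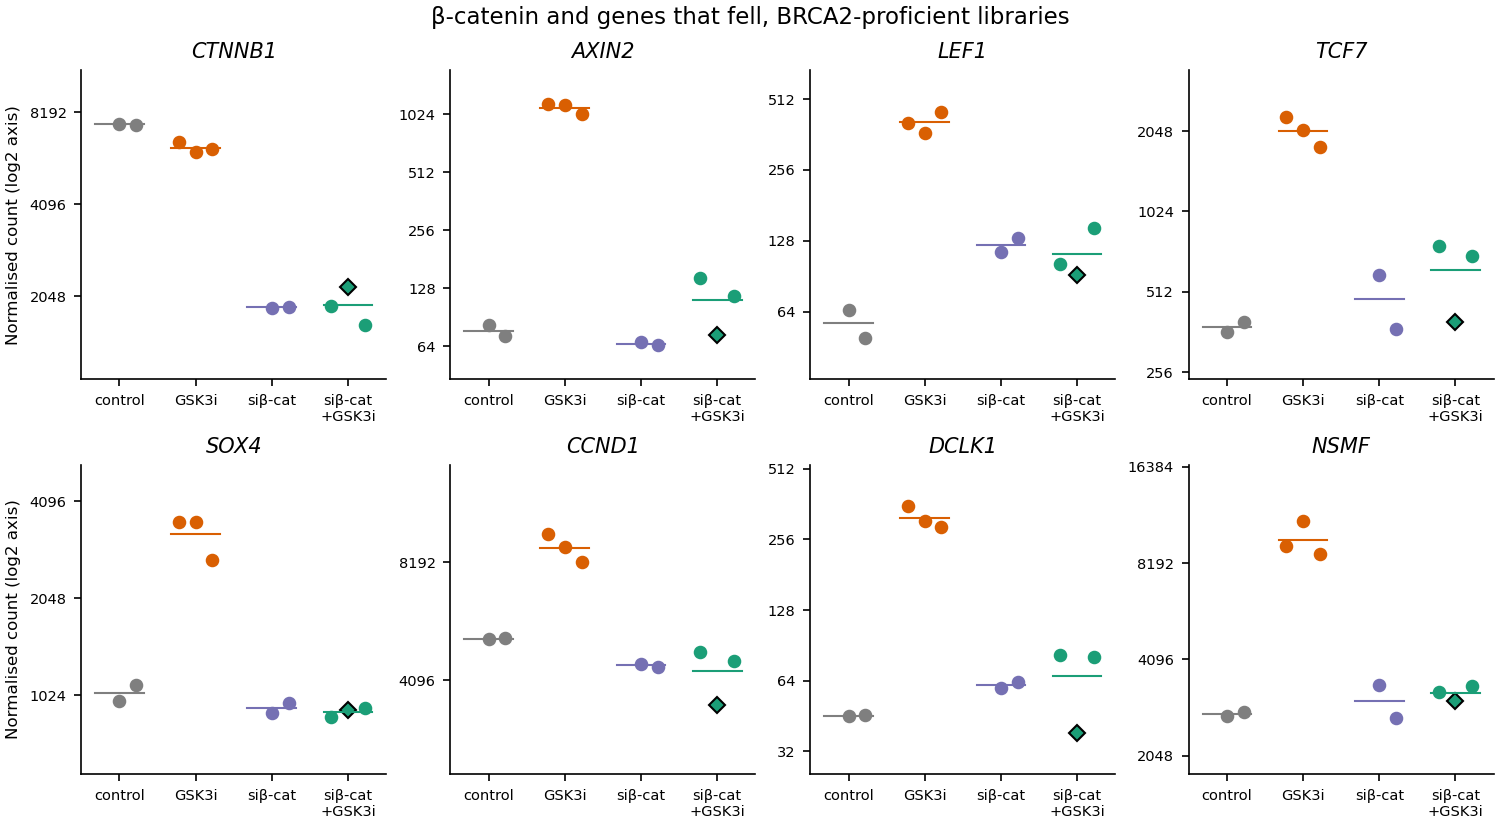
Normalised counts (log2 axes) of CTNNB1 and 7 genes that fell, in the 10 BRCA2-proficient libraries, with lines at group means and the doubtful library as an outlined diamond. AXIN2 is at 1027 to 1153 with GSK3i and control siRNA and at 73.1 to 145 with siβ-catenin.

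ZNRF3, a ligase that removes Frizzled receptors, changed by -0.77 ± 0.23 (adjusted p = 0.0191), and was not called without GSK3i replicate 2 (adjusted p = 0.209) or replicate 3 (0.141) or by edgeR (0.128). SP5, a WNT-induced transcription factor chosen here after its values were seen, had 189, 151 and 169 with control siRNA and 68.5, 127 and 84.6 with siβ-catenin. It missed the call with all 6 libraries (-0.83 ± 0.28, adjusted p = 0.0517) and was called without the doubtful one (-1.13 ± 0.25, 3.45e-04). Of 38 ligands, receptors and secretion factors, 4 were higher and 1 lower, against 3.18% and 1.92% of all genes, and without the doubtful library 2 were higher and 2 lower, against 2.54% and 2.16%. The share of lower genes is near that of all genes. WNT16 fell from 99.0, 83.1 and 81.2 to 31.2, 29.8 and 51.0 (-1.20 ± 0.34, adjusted p = 0.0108) and WNT7B, another ligand, rose by 1.41 ± 0.47 (0.0493). Both stayed called without the doubtful library (-1.07 and 1.77), and neither was called by edgeR (adjusted p = 0.0727 and 0.182). WNT16 was not called without any 1 of the 3 control libraries or siβ-catenin replicate 1 (adjusted p 0.0745 to 0.117), and WNT7B not without GSK3i replicates 2 or 3 or siβ-catenin replicates 1 or 3 (0.129 to 0.363). PTK7, a co-receptor, and KREMEN1, a receptor for DKK proteins, were called in the 6 libraries (1.27 and 0.83) but not without the doubtful one (adjusted p = 0.322 and 0.0875), nor without any 1 of the control libraries (0.106 to 0.25), nor by edgeR (0.164 and 0.138). PTK7 was also lost with the replicate block (0.0751). BMP4, a listed WNT target and BMP ligand, fell from 262, 262 and 134 to 74.5, 129 and 74.6 (-1.21 ± 0.34, 0.0104; -1.54 ± 0.31 without the doubtful library). It was not called without GSK3i replicates 1 or 2 or siβ-catenin replicates 1 or 3 (0.058 to 0.194) or by edgeR (0.113). Of the 21 members of the destruction complex, AXIN2 alone was called (4.76% lower, against 1.92% of all genes).

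Promoters of genes that fell were searched for the words CTTTGAA, or CTTTGAT, or CTTTGTA, or CTTTGTT on either strand, which are forms of the site that TCF/LEF proteins bind. The windows were the 250 bases before each start site in RefSeq (GRCh38.p14, a later build than that of the counts). Of 35116 promoters 11.96% held such a word. Among the 250 lower genes with an entry 34 held one (13.6%), among the 382 higher genes 45 (11.8%), and among the 11305 genes tested 1235 (10.9%). AXIN2, ZNRF3 and CCND1 were not matched. Of the 6 WNT targets that were lower and had an entry, 1 held a word, TCF7. The windows of TCF7, of DCLK1 (a large fall, described below) and of SP5 (lower without the doubtful library) are printed to show these words, in capitals. A match is not a bound site.
TCF7, chr5:134123368-134123617, plus strand: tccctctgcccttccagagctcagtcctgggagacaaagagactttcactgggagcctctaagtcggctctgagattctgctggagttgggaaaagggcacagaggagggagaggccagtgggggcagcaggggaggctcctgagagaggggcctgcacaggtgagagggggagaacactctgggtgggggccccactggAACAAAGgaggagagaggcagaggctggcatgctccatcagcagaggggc
DCLK1, chr13:35855668-35855917, minus strand: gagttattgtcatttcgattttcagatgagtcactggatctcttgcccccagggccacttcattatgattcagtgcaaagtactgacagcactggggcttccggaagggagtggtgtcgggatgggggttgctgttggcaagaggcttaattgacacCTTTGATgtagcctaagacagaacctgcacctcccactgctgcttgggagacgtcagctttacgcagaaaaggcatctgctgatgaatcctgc
SP5, chr2:170715087-170715336, plus strand: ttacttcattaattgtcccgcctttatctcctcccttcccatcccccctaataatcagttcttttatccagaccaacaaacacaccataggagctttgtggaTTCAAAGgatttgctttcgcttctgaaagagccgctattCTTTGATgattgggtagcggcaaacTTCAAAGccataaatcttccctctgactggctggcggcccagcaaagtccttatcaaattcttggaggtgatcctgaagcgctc
TCF7 holds AACAAAG starting 50 bases before its start site, DCLK1 holds CTTTGAT starting at 93, and SP5 holds 3 words, starting at 148, 109 and 84 bases before its start site. TCF7 has 2 promoter entries and DCLK1 has 3, and only those shown held a word.

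The genes with the largest falls, among those with a mean of at least 100 normalised counts and no overlap between the groups, included signalling and cytoskeletal genes beside AXIN2, LEF1 and SOX4. DCLK1 (ENSG00000133083, chromosome 13, 36342789 to 36705519), a doublecortin-like kinase, had 354, 307 and 289.8 against 82.6, 38.5 and 81.0 (-2.21 ± 0.29, adjusted p = 8.59e-12). NTSR1, the neurotensin receptor, had 791, 1054 and 475 against 241, 161 and 186 (-1.96 ± 0.29, 5.21e-09). RNF128, a transmembrane ubiquitin ligase, had 999, 952 and 801 against 292, 166 and 280.3 (-1.88 ± 0.23, 2.74e-13), and CXCR4, a chemokine receptor, 303, 190.0 and 180.4 against 82.6, 40.4 and 64.6 (-1.82 ± 0.32, 3.44e-06). These 4 genes stayed called without each single library, with edgeR and with the replicate block. Their levels in the doubtful library were the lowest of the 3 in each case.

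PITPNB and EIF3CL met the same rule, with limits. PITPNB (ENSG00000180957, chromosome 22, 28247657 to 28316122), a phosphatidylinositol transfer protein, had 4380.3, 4192 and 4650.1 with control siRNA and 925, 731 and 1119 with siβ-catenin (-2.23 ± 0.18, adjusted p = 3.28e-33), and the call held in every fit. Over all 22 libraries, however, it lay either between 592 and 1119 (10 libraries) or between 2705 and 4650 (12 libraries), and both levels occurred among the untreated libraries (2847 and 818) and among BRCA2-deficient libraries with GSK3i (592, 3940.2 and 1013). What divides these levels was not tested. EIF3CL, a near-identical copy of EIF3C, had 875, 89.9 and 143 with control siRNA, and was not called without the doubtful library (adjusted p = 0.17). With siβ-catenin it had 53.4, 34.6 and 52.8, and the change of -2.95 ± 0.97 was -1.30 without GSK3i replicate 1. It was not called without GSK3i replicate 3 (0.0578), siβ-catenin replicates 1 (0.133) or 3 (0.126), with the replicate block (0.0614), in a single model of all groups (0.111) or by edgeR (0.11).

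The largest increases, by the same rule, were led by ZNF467, PPL and HTR1D, which all had lower levels with GSK3i and control siRNA than in untreated cells. ZNF467 (ENSG00000181444, chromosome 7, 149461271 to 149470677), a zinc-finger protein, had 66.4, 43.2 and 50.7 with control siRNA and 197, 565 and 181 with siβ-catenin. PPL (ENSG00000118898, chromosome 16, 4932508 to 5010742), the desmosomal plakin periplakin, had 72.2, 71.7 and 65.4 against 186, 672 and 170.2. In both, the doubtful library was far above the other 2 and near the untreated level (424 and 564 for ZNF467, 727 and 776 for PPL). The changes were 2.59 ± 0.42 and 2.33 ± 0.46 with all 6 libraries and 1.84 ± 0.27 and 1.37 ± 0.25 without it, and PPL was not called by edgeR (adjusted p = 0.0683). HTR1D, a serotonin receptor, had 96.7, 67.1 and 98.1 against 290.0, 422 and 281, and 498 and 434 untreated, with a change of 1.95 ± 0.26 (adjusted p = 7.76e-11) and 1.73 ± 0.24 without the doubtful library. MYL9 (ENSG00000101335, chromosome 20, 35169900 to 35179850), a regulatory myosin light chain, differed less between its libraries, with 291, 279 and 214 against 832, 949.8 and 691 (1.68 ± 0.20, 6.63e-14). Its depleted level was above the untreated one (486 and 464). MR1, which presents vitamin metabolites to T cells, and GPR162, an orphan receptor, rose by 1.82 ± 0.33 and 1.74 ± 0.26 (adjusted p = 5.44e-06 and 6.84e-09). The other genes of this rule were GBP2, PALM, DMBT1 and ATOH8, at 1.67 to 1.83. Without the doubtful library they stood at 0.88 to 1.29, ATOH8 was no longer called (adjusted p = 0.0763; also not without GSK3i replicates 2 or 3, 0.126 and 0.0868), and edgeR called none of these 4 (0.0608 to 0.13).

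A minority of the genes that GSK3i changes in BRCA2-deficient cells were called in the opposite direction with siβ-catenin. Of the genes that GSK3i raised in BRCA2-deficient cells, 1940 were tested here, and 219 were lower (11.3%) and 5 higher with siβ-catenin, with a median change of -0.29. Of the genes that it lowered there, 2147 were tested, and 317 were higher (14.8%) and 1 lower, with a median of 0.56. Both shares rested in part on the doubtful library. Without it, 178 of 1945 raised genes were lower (9.15%) and 33 higher, with a median of -0.15, and 168 of 2148 lowered genes were higher (7.82%) and 17 lower, with a median of 0.22. The shares of all genes, 1.92% lower and 3.18% higher, were 2.16% and 2.54% without it. By edgeR 69 raised genes were lower and 50 lowered genes higher, with 0 the other way in both lists. Among all 16393 genes edgeR called 98 lower and 85 higher. The 317 fell to 96, 121 and 176 without GSK3i replicates 2, 3 and 1, and the 219 to 89 without GSK3i replicate 2. Calls among all genes fell in the same fits, from 522 higher to 160, 210 and 312, and from 314 lower to 132.

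**Figure D3:**
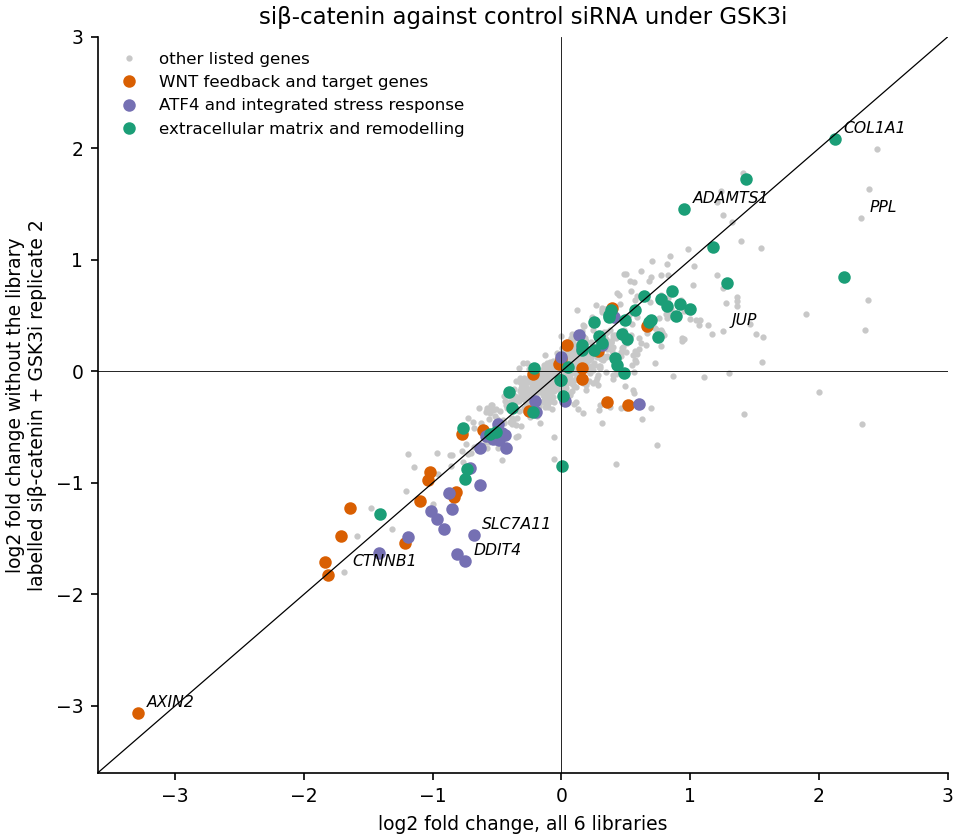
Log2 fold changes of the genes in the fixed lists, with all 6 libraries (x axis) and without the doubtful library (y axis), with 3 lists in colour and a line of equality. WNT targets lie near the line (AXIN2 at -3.29 and -3.06), ATF4-pathway genes such as DDIT4 and SLC7A11 lie below it, and PPL, at 2.33 and 1.37, lies below it on the positive side.

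Genes of the ATF4 pathway, the integrated stress response, were the other list with many falls. ATF4 is a transcription factor whose translation rises under amino acid shortage or endoplasmic reticulum stress and which drives genes of amino acid synthesis and import. Of 30 genes 11 were lower and 0 higher with all 6 libraries (median -0.52), and 19 were lower and 0 higher without the doubtful one (median -0.61), against backgrounds of 1.92% and 2.16%. The count was 1 without GSK3i replicate 2, 7 or 8 without each of the other 4 libraries, and 12 without replicate 2 of both groups. It was 12 with the replicate number as a block, and 1 by edgeR. Among all genes 132 were lower without GSK3i replicate 2, 404 with the block and 98 by edgeR.

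STC2 (ENSG00000113739, chromosome 5, 172741726 to 172755450), a secreted glycoprotein, was the member called in each of these fits. It had 2576, 2079.9 and 3063 with control siRNA and 1006, 1196 and 636 with siβ-catenin (-1.42 ± 0.24, adjusted p = 1.66e-06; -1.63 ± 0.21 without the doubtful library). SESN2, a leucine sensor upstream of mTORC1, had 2611, 3355 and 2738 against 1569, 1819.8 and 841, and SLC7A5, which imports large neutral amino acids, 9392, 14280.5 and 11699.8 against 4807, 8469 and 4519.7. They fell by 1.01 ± 0.26 and 0.96 ± 0.26 on the log2 scale, and both missed the call without GSK3i replicate 2 (adjusted p = 0.121 and 0.167), SLC7A5 also without GSK3i replicate 3 (0.0593) and siβ-catenin replicate 1 (0.0608). CHAC1, which degrades glutathione, changed by -1.19 ± 0.35 (adjusted p = 0.0183) and was not called without the doubtful library (0.121), any 1 of the 3 control libraries or siβ-catenin replicate 1 (0.0991 to 0.371), or with the replicate block (-1.35, 0.186). With one model over all groups SESN2, SLC7A5, CHAC1 and ASNS were not called (0.0755 to 0.229).

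Further members were chosen after their values were seen. ASNS, which makes asparagine, had 10780.2, 15298 and 13006 against 6524, 10268 and 4451, with a change of -0.85 ± 0.27 (adjusted p = 0.0371), and -1.23 ± 0.19 (3.33e-08) without the doubtful library. It was not called without any 1 of the other 5 libraries (0.0524 to 0.329). PSAT1 and MTHFD2, of serine synthesis and mitochondrial folate metabolism, fell by 0.88 ± 0.21 and 0.71 ± 0.17 on the log2 scale, and missed the call without GSK3i replicate 2 (adjusted p = 0.0723 and 0.0769). In CTH (cystathionine γ-lyase), SLC7A11 (the cystine importer) and DDIT4 (an mTORC1 inhibitor) the doubtful library was high. CTH had 333, 501 and 398 with control siRNA and 155, 428 and 106 with siβ-catenin, and SLC7A11 802, 1409 and 1310.2 against 515, 1315 and 325. Neither was called with all 6 libraries (adjusted p = 0.281 and 0.615), CTH was with the replicate block (-1.04, 0.00799), and both were without that library (-1.64 ± 0.24 and -1.47 ± 0.25). These genes also varied within groups beyond this comparison. In the 2 untreated libraries SLC7A11 had 762 and 1173, and in the 2 labelled siβ-catenin without GSK3i 2452 and 523, while TRIB3, a pseudokinase induced by ATF4, had 11036 and 746 in the latter.

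The promoter of ASNS is printed because it holds the word TGATGNAA, the core of the element that ATF4 binds with C/EBP partners, in capitals. Over all promoters 3.14% held this word on either strand. Counted by gene, it was held by 275 of the 11305 genes tested that had an entry (2.43%). Among the 11 list members that were lower, 3 held it. Among all 250 lower genes with an entry 15 held it (6%), and among the 382 higher genes 9 (2.36%).
ASNS, chr7:97872409-97872658, minus strand: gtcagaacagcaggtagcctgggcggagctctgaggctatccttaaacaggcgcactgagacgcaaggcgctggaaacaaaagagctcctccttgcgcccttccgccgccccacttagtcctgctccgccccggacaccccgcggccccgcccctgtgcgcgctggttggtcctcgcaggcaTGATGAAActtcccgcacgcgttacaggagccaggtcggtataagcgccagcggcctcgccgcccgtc
The word starts 68 bases before the start site. Its first letters can coincide with the end of CTTTGAT, which happens in none of the windows printed. With the doubtful library left out, 2 of the 17 lower members with an entry held the word.

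**Figure D4:**
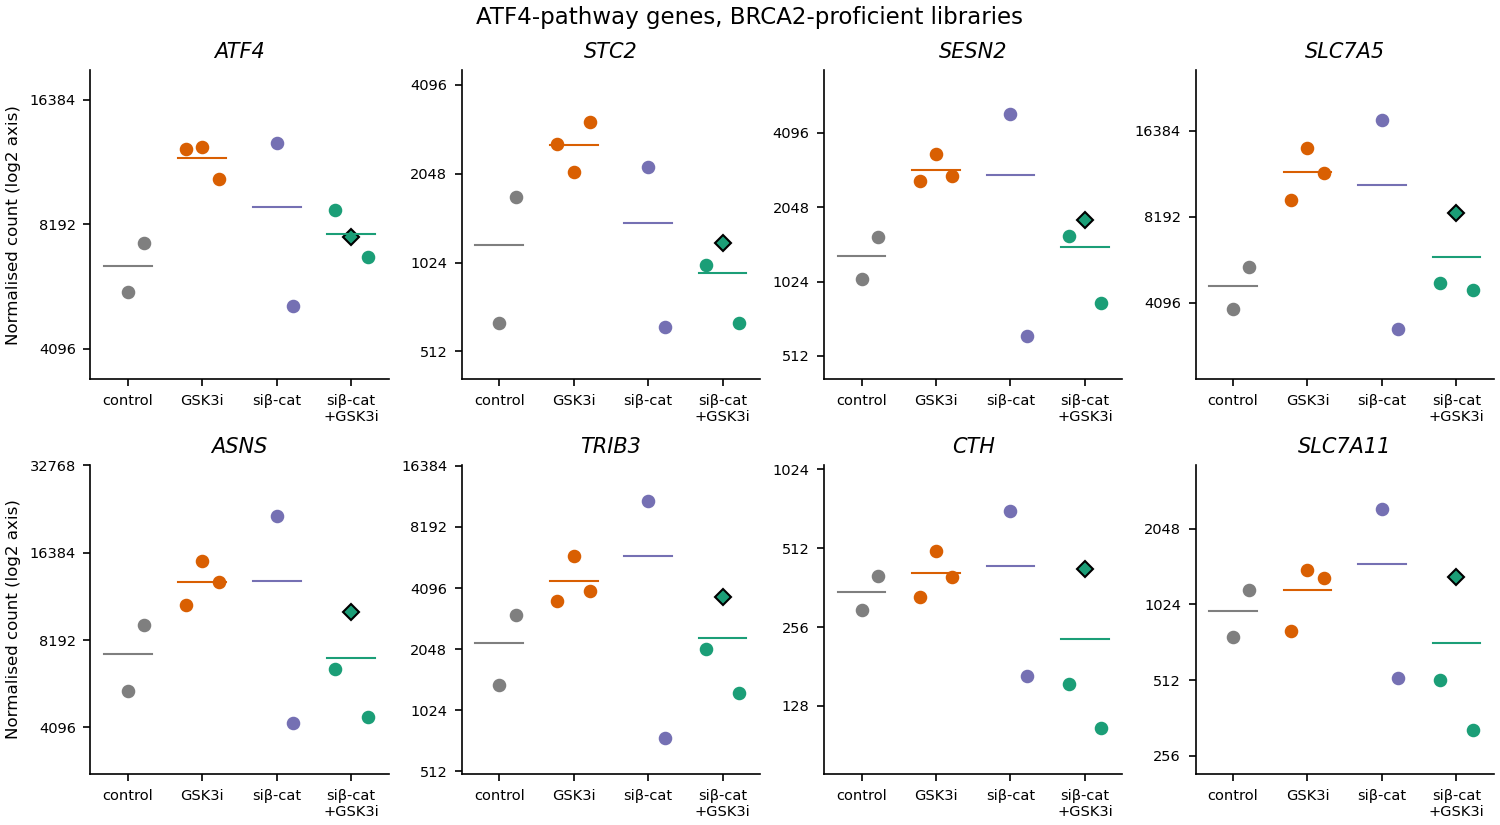
Normalised counts (log2 axes) of 8 ATF4-pathway genes in the 10 BRCA2-proficient libraries, drawn as for the WNT genes. In CTH and SLC7A11 the doubtful library (diamond) lies among the libraries with control siRNA, and the 2 libraries labelled siβ-catenin alone lie far apart.

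Matrix genes were called in both directions. Of 47 tested, 8 were higher (17.0%) and 5 lower (10.6%), against 3.18% and 1.92% of all genes. Without the doubtful library 11 were higher and 6 lower, against 2.54% and 2.16%. Those higher in each fit that left out 1 library were COL1A1, COL6A1, LAMB2 and FBN1, and those lower ITGA2 and LAMB1. COL1A1 (ENSG00000108821, chromosome 17, 48261462 to 48278993), a chain of fibrillar collagen, had 38.4, 34.1 and 39.5 with control siRNA and 135, 167 and 177 with siβ-catenin. All depleted libraries were above the untreated ones (81.3 and 103), and the change was 2.12 ± 0.28 (adjusted p = 2.13e-11; 2.08 ± 0.30 without the doubtful library). FBN1 (fibrillin 1) had 751, 997 and 1025 against 1824, 2203 and 2142 (1.18 ± 0.17, 8.04e-09). ITGA2 (ENSG00000164171, chromosome 5, 52285170 to 52390609), a subunit of a collagen-binding integrin, moved the other way, with 4097, 4527 and 4323 against 1744, 1282 and 1766 (-1.41 ± 0.16, 6.82e-15). FN1 (fibronectin) also fell (-0.73 ± 0.17, 0.00112), but was not called without GSK3i replicate 2 (0.0646) or by edgeR (0.0547). LAMB2 and COL6A1 were at 0.85 and 0.77, and LAMB1 at -0.56 (chosen after their values were seen). LAMA5, a laminin chain, rose by 0.9998 (0.00973) with 1054, 2276 and 1167 in the depleted libraries, by 0.56 without the doubtful one, and was not called without GSK3i replicates 2 or 3 (0.131 and 0.0932) or by edgeR (0.122).

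CCN1, which codes for a matricellular protein of the YAP/TEAD programme, rose. It had 5743, 3217 and 4766 against 11163, 10909 and 11642, and 11007 and 16910.5 untreated (1.32 ± 0.20, 4.05e-08), so depletion brought it near the lower untreated library. Of 22 TGF-β and BMP targets 3 were higher and 3 lower, and of 25 YAP/TEAD targets 4 were higher and 2 lower (7 and 2 with the replicate block), against 3.18% higher and 1.92% lower of all genes. PMEPA1, a TGF-β feedback protein, fell from 3564, 2315 and 2783 to 1235, 616 and 1203 (-1.48 ± 0.26, 3.89e-06), and AMOTL1, a YAP-binding angiomotin, by 0.77 ± 0.13 on the log2 scale (1.44e-06). ID1, a BMP target, had 1311, 4232 and 2134 with siβ-catenin and 1335, 1250.4 and 1213 without, and its call (1.04, adjusted p = 0.0336) was lost without the doubtful library (0.46, 0.145). It was also lost with the replicate block (0.87, 0.335), without any control library (0.201 to 0.496) and without siβ-catenin replicate 3 (0.284).

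In the NOTCH pathway the receptor NOTCH3 rose, and the ligand JAG1 and the feedback inhibitor NRARP fell. NOTCH3 had 201, 229 and 222 against 420.0, 949.8 and 507 (1.55 ± 0.29, adjusted p = 2.11e-05; 1.11 ± 0.18 without the doubtful library). JAG1 had 1168, 1197 and 1399 against 571, 549 and 688 (-1.03 ± 0.16, 5.77e-08), and NRARP 170.0, 215 and 170.3 against 61.4, 50.04 and 70.1 (-1.59 ± 0.26, 1.83e-07). All 3 were called in each fit that left 1 library out. RBPJ, the DNA-binding partner of NOTCH, was near the size criterion (-0.52 ± 0.15, 0.0117), under it without the doubtful library (-0.50 ± 0.14), and not called without GSK3i replicates 2 or 3 or siβ-catenin replicates 1 or 3 (0.0572 to 0.0789). Of 22 genes tested 1 was higher and 3 lower, against 3.18% and 1.92% of all genes, so the share higher is near that of all genes.

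Feedback genes of MAPK signalling differed from each other. DUSP1, a phosphatase of MAP kinases, rose from 912, 653 and 836 to 1622, 1765 and 1413 (1.03 ± 0.18, 1.85e-06). The ETS factor ETV4 and PHLDA1 fell by 0.85 ± 0.17 and 0.77 ± 0.12 on the log2 scale (adjusted p = 3.7e-05 and 1.01e-07). Without the doubtful library DUSP6, SPRY4 and ETV5 were also lower (-0.78, -0.69 and -0.58; named after their values were seen). DUSP6 had 583, 674 and 644 with control siRNA and 324, 1067 and 402 with siβ-catenin, the doubtful library being the highest of the 6. ETV1, a related ETS factor, changed sign with that library, from 0.26 ± 0.65 (not called) to -0.69 ± 0.18 (adjusted p = 0.00527), with 468, 386 and 506 against 293, 1035 and 263.

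Junction, growth and survival genes gave fewer calls. Of 21 desmosome, plakin and cornified envelope genes 4 were higher and 1 lower, against 3.18% and 1.92% of all genes. Besides PPL, KRT8, of simple epithelia, was called (0.85 ± 0.25, 0.0173). It did not pass the size criterion without the doubtful one (0.499), and was not called without GSK3i replicates 2 or 3 (0.201 and 0.152) or by edgeR (0.125). FOXO3, a transcription factor of growth arrest, and TRIB2, a pseudokinase, fell from 3436, 3489.6 and 4208 to 1979.9, 1983 and 2081 and from 611, 497 and 664 to 224, 262 and 214 (-0.86 ± 0.14 and -1.32 ± 0.19). The BH3-only genes BCL2L11 (BIM) and PMAIP1 (NOXA) fell by 0.89 ± 0.21 and 0.73 ± 0.14 on the log2 scale (adjusted p = 0.00168 and 5.24e-05), and edgeR called PMAIP1 but not BCL2L11 (0.0349 and 0.0695). HMOX1, haem oxygenase, had 1063, 1000.1 and 606 against 2288, 1015 and 2757. It rose by 1.21 ± 0.33 (0.00751) with all 6 and by 1.52 ± 0.22 without the doubtful library, and was not called without GSK3i replicate 3 (0.124), siβ-catenin replicates 1 (0.055) or 3 (0.0685), by edgeR (0.128) or with the replicate block (1.13, 0.268). Of 15 NF-κB targets and cytokines 2 were higher and 1 lower in both fits. The shares of all genes were 3.18% and 1.92%, and 2.54% and 2.16% without the doubtful library. The higher ones were CXCL2 and TRAF1 (1.02 ± 0.21 and 0.82 ± 0.20), and the lower one was LIF (-0.97 ± 0.24). EdgeR called neither TRAF1 (0.0719) nor LIF (0.085), and TRAF1 was not called without GSK3i replicate 2 (0.0771) or in a single model of all groups (0.0899). The quiescence list had a median of 0.55 with all 6 libraries and -0.02 without the doubtful one, with 1 of 29 higher and 3 lower in both fits (4 higher and 3 lower with the replicate block), the share higher being near the 3.18% of all genes. Among 40 lysosome and autophagy genes TFEB, a transcription factor of lysosome genes, and WIPI1 were higher (0.82 and 0.81), and among 41 glycolysis, hypoxia and glycogen genes HK2 (hexokinase 2) and VEGFA were lower (-0.68 and -0.61) and PPP1R3B higher (0.56). ABCA1, a cholesterol exporter, was the 1 gene called of 29 in the cholesterol list, at 1.37 with all 6 libraries and 0.63 without the doubtful one. The shares higher were 5% (lysosome), 2.44% (glycolysis) and 3.45% (cholesterol), near the 3.18% of all genes. The glycolysis list had 4.88% lower, against 1.92%. Each of these 6 named genes was lost without GSK3i replicate 2 (0.0811 to 0.289) and by edgeR (0.0991 to 0.139). TFEB was also lost without any other library but the doubtful one (0.0575 to 0.121), WIPI1 without the doubtful library (0.0772) and GSK3i replicates 1 or 3 (0.0868 and 0.213), and ABCA1 without GSK3i replicates 1 or 3 (0.0779 and 0.0903). HK2 was lost without GSK3i replicate 3 (0.201), VEGFA without that library or siβ-catenin replicate 3 (0.175 and 0.0666), and PPP1R3B without GSK3i replicate 1 or siβ-catenin replicates 1 or 3 (0.0526 to 0.161).

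RRS1, RRP12 and NCL, of ribosome assembly, were the 3 of 30 MYC-network genes that were lower (10%, against 1.92% of all genes). In this list 0 were higher, against 3.18%, and the median was -0.42. RRS1 had 7291, 5719.7 and 5358 against 3117, 1488 and 3567 (-1.15 ± 0.28, 0.00205; -0.85 ± 0.16 without the doubtful library, which was the lowest). RRP12 was not called without GSK3i replicate 2 (0.0825). NCL was not called without any control library (0.0693 to 0.133), and without the doubtful library its change was -0.43. EdgeR called none of the 3 (0.0767 to 0.0932). The count was 10 with the replicate block and 8 without siβ-catenin replicate 3. An unadjusted p below 0.05 was found for 20 of the 30 genes, against 2875 of all 16393 genes tested. MYC itself had 5694, 4121 and 4375 against 3639.6, 4416 and 3651 and was not called (-0.25 ± 0.17, 0.457).

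Cell-cycle lists showed few or no calls. Of 52 E2F and S-phase genes, 54 G2/M genes and 35 genes of homologous recombination and Fanconi repair, DESeq2 called 0 with all 6 libraries, with medians of -0.14, 0.03 and -0.11. Of all genes 3.18% were higher and 1.92% lower, and at these shares each list would hold few calls. Without the doubtful library CCNE2 alone was called among these lists, at 0.72 ± 0.22. At an unadjusted p below 0.05 there were 7, 4 and 3 genes, against 2875 of all 16393 genes tested (2938 by edgeR). The edgeR test also called 0 (4, 4 and 3 at an unadjusted p below 0.05), and the replicate block called 1 G2/M gene. CDC6 had 2318, 2377 and 2333 with control siRNA and 2251, 1473 and 2158 with siβ-catenin, the doubtful library being near the untreated ones (1653 and 1376), and changed by -0.23 ± 0.18 with all 6 and -0.07 ± 0.11 without it. CCNE1 was not called (-0.45 ± 0.16, 0.0739). CDKN1A, which encodes p21, had 678, 655 and 609 against 1093, 841 and 897 (0.57 ± 0.16, 0.0127; 0.64 ± 0.15 without the doubtful library). The groups did not overlap, as in 4404 of the 16393 genes tested and 825 of the 836 called. The call of CDKN1A was lost by edgeR (0.105), in a single model of all groups (0.0754) and without GSK3i replicates 1 (0.0502), 2 (0.154) or 3 (0.124) or siβ-catenin replicate 1 (0.125). DESeq2 and edgeR also called 0 of 28 interferon-stimulated genes (8 and 5 at an unadjusted p below 0.05; 1 called with the replicate block) and 0 of 13 mtDNA-encoded genes (0 and 0). Lists this small would hold few calls or none at the shares of all genes.

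**Figure D5:**
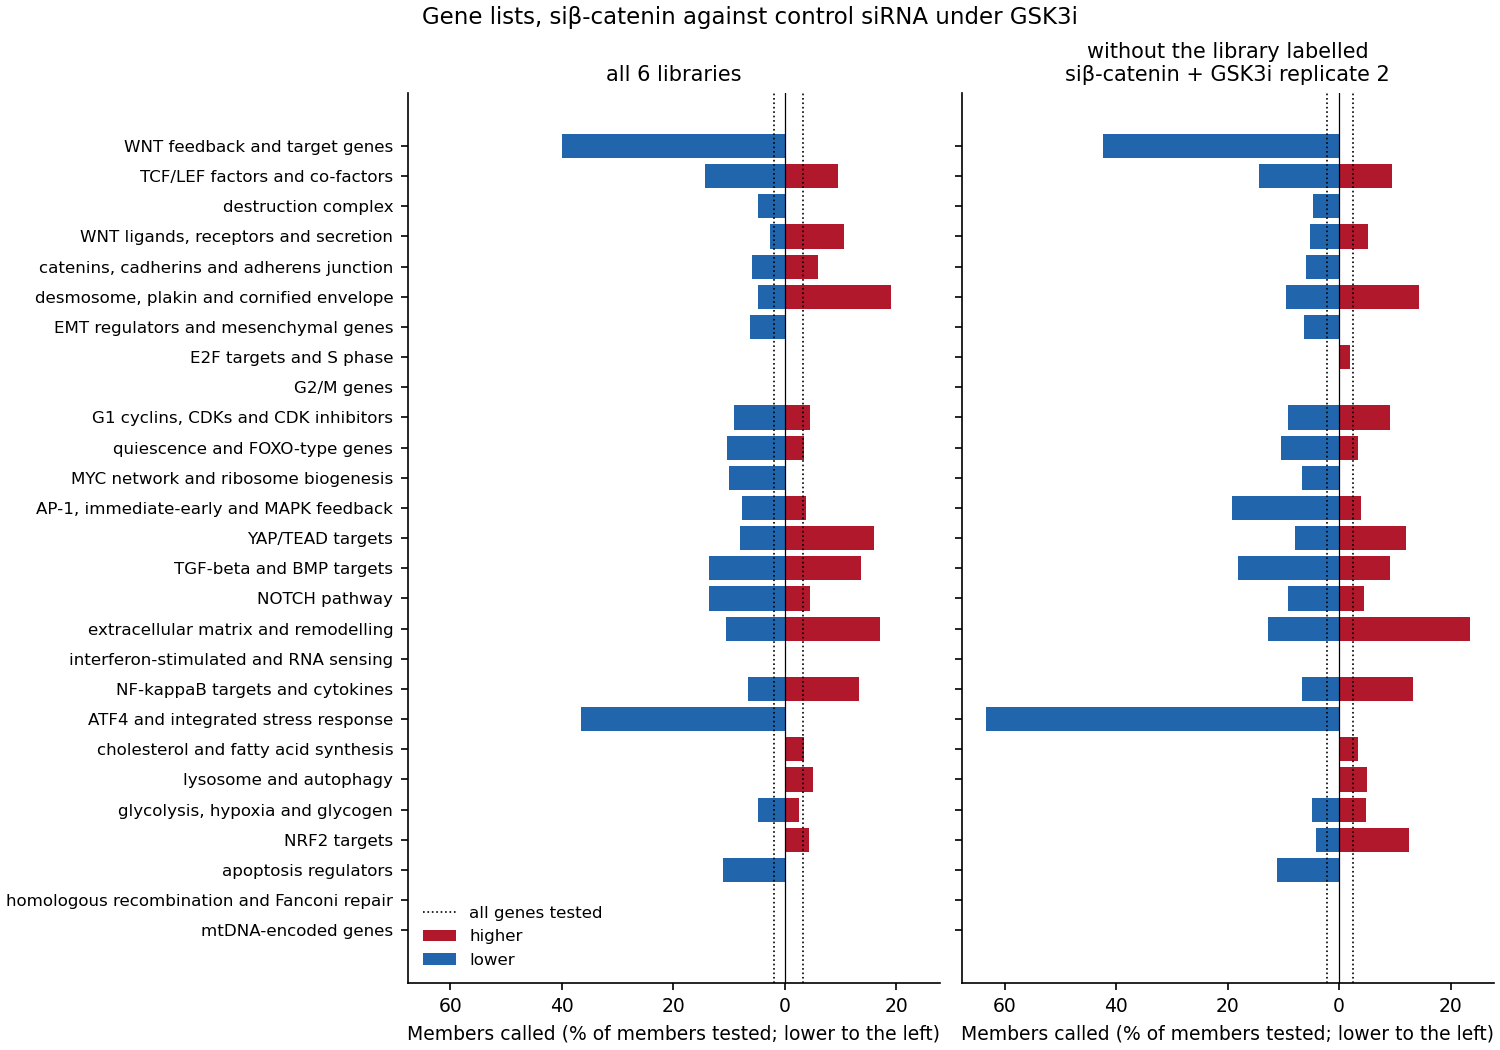
Share of tested members called lower (blue, to the left) or higher (red, to the right) in 27 gene lists, with all 6 libraries (left panel) and without the doubtful one (right panel), with dotted lines at the shares among all genes tested. The WNT and ATF4 lists reach furthest to the left, with 10 of 25 and 11 of 30 genes in the left panel.

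The same siRNA comparison in BRCA2-deficient cells shares no library with this one. It called 502 genes higher (2.95%) and 437 lower (2.57%) of 17025. Of the 522 genes higher in BRCA2-proficient cells 259 were also higher there (49.6% of these and 51.6% of those), and of the 314 lower 181 (57.6% and 41.4%), with 0 called in opposite directions. With the doubtful library left out, 239 and 202 were shared. AXIN2 changed by -3.10 ± 0.26, LEF1 by -2.21 ± 0.27 and SOX4 by -1.97 ± 0.17 in BRCA2-deficient cells, and COL1A1 and MYL9 by 1.79 ± 0.24 and 1.32 ± 0.20. Several lists differed between the counts. In BRCA2-deficient cells the ATF4 list had 3 lower and 2 higher of 30, and the E2F list 10 lower of 52. The G2/M list had 9 lower of 54 there, and homologous recombination and Fanconi repair 4 lower of 35. A call in 1 background alone does not show a difference, which the interaction term tests.

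That interaction called 1 gene of 17544 (0.0057%), ENSG00000225871, a processed pseudogene on chromosome 1 with 0 to 4.55 normalised counts in the 6 BRCA2-proficient libraries. In BRCA2-deficient cells under GSK3i it had 40.1, 30.9 and 34.9 with control siRNA and 1.0, 1.0 and 5.27 with siβ-catenin. At an unadjusted p below 0.05 there were 326 genes, edgeR called 0 (324 at an unadjusted p below 0.05), and the replicate block called 4. In simulated data of this design, with 200 genes changed by 1 on the log2 scale, edgeR recovered 49 and DESeq2 120 with 28 false calls. Leaving out the doubtful library, 11 of 17408 (0.0632%) were called, and without each other library 0 to 2. Those 11 included, beside the pseudogene, GABRG1 and FBLL1, the genes SESN2, TRIB3, PCK2, SLC1A4 and ADM2, which are known ATF4 targets, and the DNA synthesis genes PRIM1, RRM2 and GINS1 (PCK2, SLC1A4, ADM2, RRM2, GINS1, TRIB3 and FBLL1 were chosen after their values were seen). SESN2 had 2611, 3355 and 2738 with control siRNA in BRCA2-proficient and 676, 565 and 582 in BRCA2-deficient cells under GSK3i, and 1569, 1819.8 and 841 and 624, 658 and 813 with siβ-catenin. The level thus stood low in all 6 BRCA2-deficient libraries. PRIM1, the catalytic subunit of primase, had 745, 876 and 836 against 809.7, 814 and 755 in BRCA2-proficient cells, and 695, 681 and 605 and 384, 379 and 396 in BRCA2-deficient cells. Its interaction was -0.73 ± 0.17 with all 12 libraries (adjusted p = 0.0894) and -0.71 ± 0.17 without the doubtful one (adjusted p = 0.0392). The interaction for SESN2 was 1.24 ± 0.34 (adjusted p = 0.464) and 1.47 ± 0.33 (0.027).

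Whether siβ-catenin acts differently with and without GSK3i was tested on the 10 BRCA2-proficient libraries, and 1308 of 17093 genes (7.65%) were called. This test contains both libraries whose response to GSK3i goes against the label. The untreated and siβ-catenin alone groups hold 2 libraries each, so leaving out either library of such a group leaves it without replication. The count was 1116 without the doubtful library, 152 without the library labelled siβ-catenin alone replicate 2, and 592 without both (the last chosen after the data were seen). It was 102 and 235 without untreated replicates 3 and 2, 420 and 585 without GSK3i replicates 2 and 3, and 2254 without siβ-catenin alone replicate 3. The edgeR test called 4. In simulated data of this design it recovered 0 of 200 genes changed by 1 on the log2 scale, and DESeq2 97 with 24 false calls. The simulation took its dispersions from all 10 libraries, and larger changes were not simulated. Neither the low edgeR count nor this simulation can therefore decide how many of the 1308 are real. AXIN2, LEF1, SOX4, NSMF (a synapse-to-nucleus messenger) and G3BP1 (a stress granule protein) had the lowest p among genes with a negative interaction. NSMF fell from 9263, 11053 and 8721 to 3245, 3045 and 3387 under GSK3i, and had 2725 and 2814 untreated and 3397 and 2697 with siβ-catenin alone. Its interaction was -1.70 ± 0.23, and -1.49 without both libraries, where siβ-catenin alone is represented by replicate 3 only. For KIAA1522 and SPRY2, an inhibitor of receptor tyrosine kinase signalling, among the 5 of lowest p with a positive interaction, it was 1.28 and 1.37, and 1.21 and 1.20 without both.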

How the data were processed

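Stranded poly(A)-selected RNA-seq libraries were deposited as raw gene counts, whole numbers per gene and library. Per the submitters' processing notes in the labels, the authors used HISAT2 2.0.4 with hg19 (GRCh37), Picard 1.9.2, SAMtools 1.4 and featureCounts 1.5.0. The study's own reporting form gives other versions of HISAT2, Picard and featureCounts, and which applied to these files is not settled here. By the study's methods duplicates were removed. The strand setting of the counting is not given in the sources used here. Of 37908 genes listed, those with more than 3 of the 6 libraries under 10 counts were dropped, which left 16393. All fits used all genes, with DESeq2 1.42.0 (R 4.3.3), a Wald test and Benjamini-Hochberg adjustment. EdgeR 4.0.16 (quasi-likelihood) was an alternative, as were other filters and scalings, one model over all groups, the replicate block, a test against the size criterion and leaving out libraries. The interactions used an adjusted p alone. Genes called had an adjusted p below 0.05 and a change beyond 0.5. The scripts were tested on simulated data, with 200 genes changed by 1 on the log2 scale. In the 6-library comparison DESeq2 recovered 163 of them with 29 false calls, and edgeR recovered 136. In the BRCA2 interaction DESeq2 recovered 120 with 28 false calls, and edgeR 49. In the GSK3i interaction DESeq2 recovered 97 with 24 false calls, and edgeR 0. The false calls of DESeq2 were thus more than an adjusted p below 0.05 is meant to allow.

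The members and the 29 gene lists were chosen with earlier results of these data known, so counts for lists are descriptions. Named genes were 14 genes of the pathway and the study, the 10 largest increases and decreases called with a mean of at least 100 and no overlap between groups, up to 4 called members of each list (mean at least 50), and the 5 lowest p in each direction of each interaction. Any other gene named was chosen after its values were seen. Replicate numbers pair the libraries: deviations from group means correlated at 0.29, 0.20 and 0.36 for equal numbers and at -0.04 to -0.22 for others (12891 genes). Fits with the number as a block are given where they change a call. Identifiers without a symbol held 0.743% of counts. A few genes of the lists are not reported here by name.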

Additional observations from a re-analysis of the deposited data

Results flagged for a closer look

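The interaction of siβ-catenin with BRCA2 status under GSK3i was called in 1 gene, the pseudogene ENSG00000225871. It had at most 4.55 normalised counts in the BRCA2-proficient libraries compared, and edgeR and a fit without a filter called 0. In simulated data of this design DESeq2 made 28 false calls, so this call may be false. The effect of siβ-catenin differed with and without GSK3i in 1308 genes, in a test that includes both siβ-catenin libraries of replicate 2. Among the genes named from that test, the effect was lower under GSK3i, as a log2 difference of differences, by -3.06 in AXIN2, -2.95 in LEF1, -1.66 in SOX4, -1.70 in NSMF and -1.12 in G3BP1. It was higher by 4.34 in ZNF467, 3.28 in DMBT1, 2.15 in DUSP1, 1.37 in SPRY2 and 1.28 in KIAA1522. Without both libraries of replicate 2 the values were -2.82, -2.91, -1.72, -1.49 and -1.11, and 3.28, 2.44, 1.83, 1.20 and 1.21. In that refit siβ-catenin without GSK3i is represented by replicate 3 only, so the values are not replicated on that side. That library had 0.21 and -0.29 on the measures of the GSK3i response. The part of the doubtful labels in the 1308 was not tested beyond these refits. The interaction values also take in the change in the libraries labelled siβ-catenin without GSK3i (replicates 2 and 3). There ZNF467 had 424 and 564 untreated and 109 and 183 with siβ-catenin, and DMBT1 557 and 420 against 132 and 198. LEF1 had 65.0 and 49.5 against 115 and 131, whereas AXIN2 differed less, with 82.4 and 72.3 against 67.2 and 65.0. With GSK3i the changes of these 4 genes were 2.59, 1.72, -1.84 and -3.29.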

How the results depend on the processing

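The count of 836 called genes was 183 by edgeR, 52 when tested against the size criterion, 368 without replicate 2 of both groups, 292 to 855 without single libraries and 892 with the replicate block (paired numbers). The share of calls that were higher was 62.4%, and 46.4% by edgeR, 72.2% with one model over all groups, 54.7% with the replicate block and 54.0% without the doubtful library. The 219 genes raised by GSK3i in BRCA2-deficient cells and lower here were 69 by edgeR, 26 against the size criterion and 121 without replicate 2 of both groups, and 89 to 247 without single libraries. The 317 genes lowered there and higher here were 50, 13 and 59 in that order, 602 with one model over all groups and 96 to 426 without single libraries. The BRCA2 interaction (1 gene) gave 0 by edgeR and with no filter, 4 with the replicate block and 0 to 11 without single libraries. The GSK3i interaction (1308) gave 4 by edgeR, 592 without both siβ-catenin libraries of replicate 2, 102 to 2254 without single libraries and 1044 with the replicate block. In simulated data edgeR recovered 49 of 200 changed genes in the BRCA2 interaction and 0 of 200 in the GSK3i interaction. The 939 genes called for siβ-catenin in BRCA2-deficient cells were 267 by edgeR, 366 to 1037 without single libraries and 1341 with the replicate block, and the 4289 genes that GSK3i changed were 3066 to 4370 without single libraries. Of 139 named genes, only ETV1 changed sign into a call, at 0.26 with all libraries, -0.69 to 0.58 without single libraries (-0.69 without the doubtful one) and -0.80 without replicate 2 of both groups. The replicate block ended the call of 8 named genes and added 5, and leaving out GSK3i replicate 2 ended 47 calls, the most of any single library. Why the count depends on that control library was not tested. Totals of 21.9 to 25.9 M counts leave genes of low level, such as COL1A1 or WNT16, with the widest counting error.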
